A study of Rattus norvegicus with 12 samples.

Results

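The proteasome genes outside the immunoproteasome were described in rat liver after a single injection of dexamethasone. They were taken as every gene on the array whose name starts with Psma, Psmb, Psmc, Psmd, Psme, Psmf or Psmg followed by a digit, leaving out the immunoproteasome subunits Psmb8, Psmb9 and Psmb10. The brightest probe stood for each gene. This gave 38 genes of the 35737 gene names on the array, and all 38 were among the 24312 names that passed the filter on dim probes. Each of the 38 was well above background on all 12 arrays. By their roles, 7 of them encode the outer (alpha) ring and 7 the inner (beta) ring of the core particle, 6 the ATPases and 3 other parts of the base of the regulatory particle, 7 its lid, 3 chaperones that help assemble it and 4 separate activators of the core. The last, Psmc3ip, is not a proteasome gene in spite of its name. It encodes a partner of the recombinases of meiosis, and it is kept in the counts because the naming rule takes it.

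The proteasome is the barrel-shaped protease that degrades proteins tagged with ubiquitin. Its core particle holds the cutting sites inside the beta rings. The regulatory particle caps the barrel, binds ubiquitin chains, removes them and threads the unfolded protein in. Interferon replaces the cutting subunits with those of the immunoproteasome and raises the activators Psme1 and Psme2. Glucocorticoids are known to raise proteasome and ubiquitin ligase transcripts in wasting muscle, while in liver they direct the use of amino acids for glucose production.

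The series compared adult Sprague-Dawley rats, 8 to 10 weeks old, all without adrenal glands and therefore without their own source of corticosterone. Males and females, the females at the stage Diestrous 1, were injected into the peritoneum with dexamethasone, a synthetic glucocorticoid, at 1 mg per kg, or with phosphate-buffered saline as vehicle. Livers were taken 6 hours later. Each of the 4 groups had 9 rats, pooled by 3 into 3 RNA samples, and each pool was hybridized to its own 1-colour array. The arrays measured transcripts in whole liver, at 1 dose and 1 time, so nothing here speaks of proteasome protein or activity. The spread behind each error and p-value is that between pools of the same group. For each gene it was estimated over all 4 groups together and drawn towards that of all genes. It is therefore the same for males and females, and the small number of arrays limits the precision.

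The arrays carried between 53.0% and 69.7% of their spots well above background. Replicate 3 of every group lay on 1 slide, slide 5, scanned on a day of its own. The other 8 arrays were spread over 4 slides, of which only slide 1 held both treatments of a sex. Female vehicle replicates 1 and 2 lay on slide 2, scanned on day 1. Female dexamethasone replicates 1 and 2 lay on slide 4, scanned on day 3. Outside slide 5, treatment of females therefore cannot be told apart from slide and scan day. A fit with slide as a fixed block takes its female dexamethasone difference from 1 treated pool, replicate 3 on slide 5. As a check of treatment, the glucocorticoid targets Fkbp5, Tsc22d3, Per1 and Tat rose in both sexes, Fkbp5 by 4.16 ± 0.18 (log2 difference ± SE) in males and 4.54 ± 0.20 in females. Levels below are normalized log2 intensities, that is, log2 of a spot's processed signal minus the 75th percentile of its array. They compare arrays for 1 probe and not probes with each other. Differences are log2 differences from limma fitted over all 24312 genes, and a gene was called when its Benjamini-Hochberg adjusted p was under 0.05.

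In males, dexamethasone raised 7 of the 38 genes (18.4%) and lowered none, while of all genes 9.24% were called higher and 10.9% lower. In females it raised 12 (31.6%) and lowered none, against 11.8% higher and 12.6% lower of all genes. An unadjusted limma p under 0.05 was reached by 14 of the 38 in males (36.8%) and 20 in females (52.6%). Of all genes 31.7% and 37.3% reached it, so the male share was near that of all genes. A single one of these members lay lower in each sex. The median difference over the 38 genes was 0.27 in males and 0.36 in females, against 0.01 and -0.07 over all genes. Under other settings it was as low as 0.12 in males and 0.21 in females. Most of the 38 are among the brighter genes, and no median of equally bright genes is given here. Whether brightness has a part in the shift was not tested. Differences were above 0 for 34 of the 38 in each sex, and for 33 of them in both sexes; of all genes, 50.5% lay above 0 in males and 45.7% in females. Against the 16822 genes that, like these 38, were well above background on every array, the background rose to 12.4% called higher in males and 15.4% in females, and 8 and 15 of the 38 were then called. In whole tissue a fall or rise in the number of cells of a type cannot be told apart from less or more RNA per cell.

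**Figure D1:**
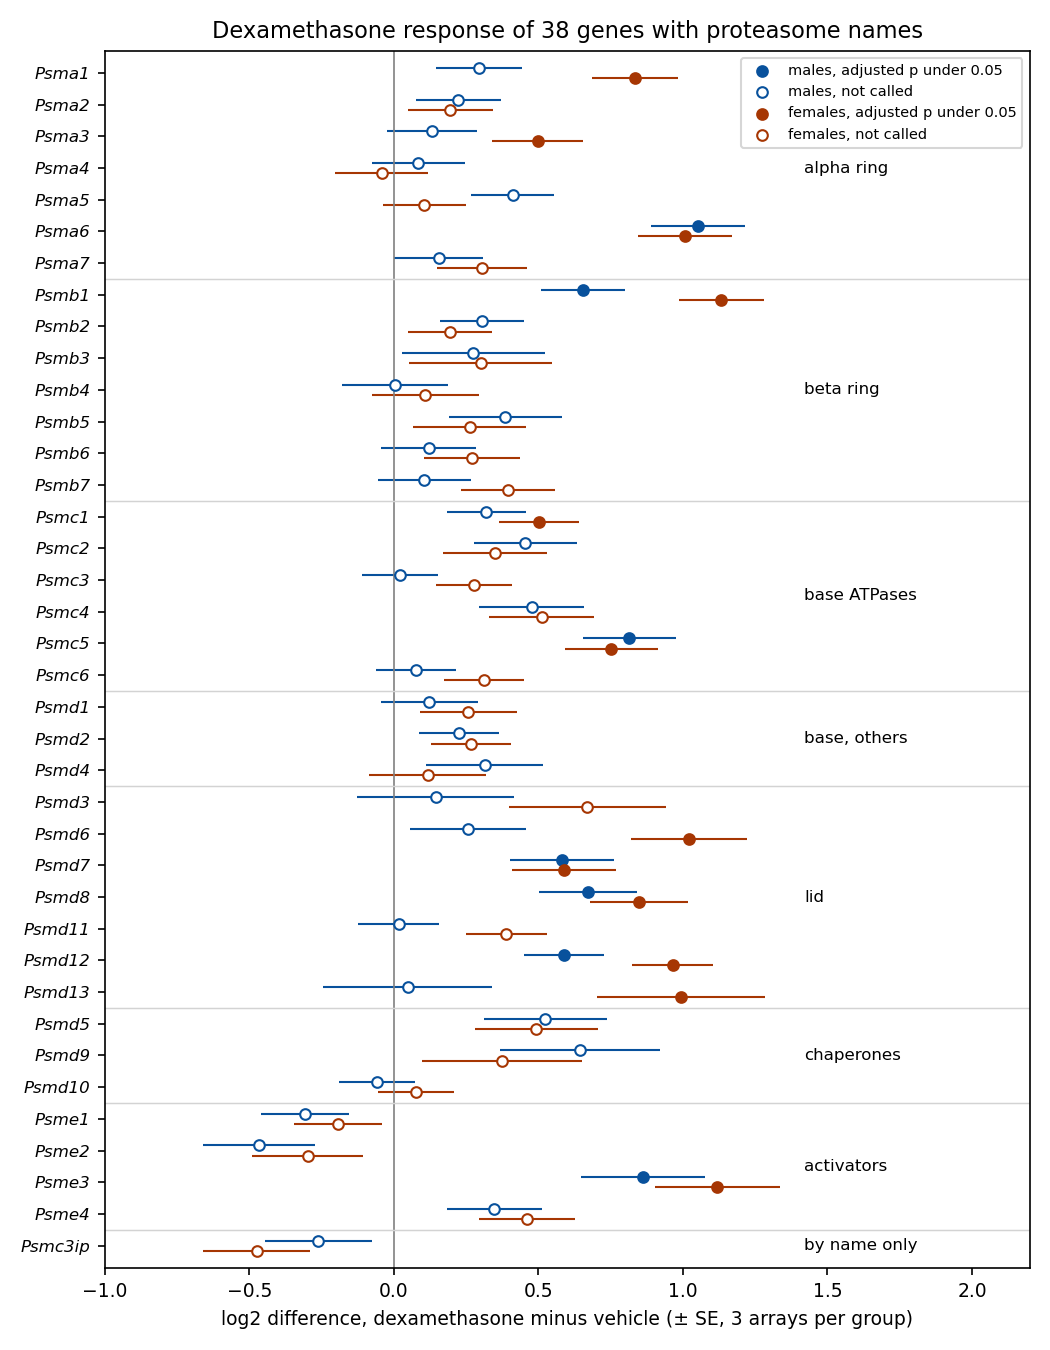
Log2 difference between dexamethasone and vehicle for each of the 38 genes, with its standard error (3 arrays per group), grouped by role from top to bottom. Blue points are males and brown points females, filled where the adjusted p was under 0.05. Most points lie right of 0; Psme1, Psme2 and Psmc3ip lie left of it in both sexes.

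The same 7 genes called in males were also called in females: Psma6, Psmb1, Psmc5, Psmd7, Psmd8, Psmd12 and Psme3. They come from the alpha ring, the beta ring, the base, the lid and the activators. The female calls added Psma1, Psma3, Psmc1, Psmd6 and Psmd13. The male count rested in part on the third pool: without male dexamethasone replicate 3 it was 4, and without slide 5 it was 3, when Psmb1, Psmd7, Psmd8 and Psmd12 had an adjusted p of 0.069 to 0.073. With slide as a fixed block 9 genes rose in males and 7 in females, and with slide as a random block 13 and 15. The female calls lost with the fixed block were Psma1, Psma3, Psmc1, Psmc5, Psmd6 and Psmd7, at an adjusted p of 0.052 to 0.165, and Psmd3 was gained. As slide 4 held no other group, these fixed-block results in females rest on 1 treated pool, that on slide 5. Under quantile normalization the number of differences above 0 fell to 26 in males and 32 in females, with 5 and 10 calls.

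In the alpha ring, the gate through which substrates enter the core, 1 of 7 genes rose in males and 3 of 7 in females. Counts by role, here and below, stand against 9.24% of all genes called higher in males and 11.8% in females. A count of 1 gene in a role is near those shares. Psma6 moved most. Its level in the male vehicle arrays was 6.38, 6.44 and 6.52, and in the male dexamethasone arrays 7.45, 7.32 and 7.73. In females it was 6.20, 6.28 and 6.53 after vehicle and 7.28, 7.24 and 7.50 after dexamethasone. Every treated array lay above every vehicle array of both sexes. The difference was 1.05 ± 0.16 in males (2.07-fold, adjusted p = 0.0013) and 1.01 ± 0.16 in females (2.01-fold, adjusted p = 0.0016). It stayed called when any of the 12 arrays was left out.

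Psma6 had a second probe of unrelated sequence, which gave 0.86 ± 0.18 in males and 1.28 ± 0.18 in females with each probe fitted on its own. Psma1, another alpha subunit, rose in females by 0.84 ± 0.15 (adjusted p = 0.0028), from levels of 3.07 to 3.47 to levels of 4.04 to 4.27. In males it went from 3.58 to 3.62 up to 3.84 to 3.94, without overlap, but the difference of 0.29 ± 0.15 was not called. Psma3 rose in females by 0.50 ± 0.16 (adjusted p = 0.042), and this call was lost when single arrays were left out, with an adjusted p of up to 0.11. The other 4 alpha genes ranged from 0.08 for Psma4 to 0.41 for Psma5 in males and from -0.04 for Psma4 to 0.31 for Psma7 in females, none called.

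In the beta ring, 1 of 7 genes rose in each sex (14.3%), near the 9.24% of all genes in males and 11.8% in females. Psmb1, a beta subunit without a cutting site, stood at 3.50, 3.36 and 3.46 in vehicle males and at 4.21, 3.85 and 4.23 in treated males. In females it went from 3.31, 3.17 and 3.14 to 4.34, 4.34 and 4.34, so that the treated female arrays were almost level. The groups did not overlap in either sex. The difference was 0.65 ± 0.15 in males (adjusted p = 0.0099) and 1.13 ± 0.15 in females (2.19-fold, adjusted p = 0.00042).

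The 3 subunits that carry the constitutive cutting sites were not called in either sex. Psmb5, the chymotrypsin-like site, differed by 0.39 ± 0.20 in males, from levels of 4.99 to 5.16 up to 5.31 to 5.61, and by 0.26 ± 0.20 in females, where the groups overlapped. Psmb6, the caspase-like site, differed by 0.12 ± 0.17 and 0.27 ± 0.17. Psmb7, the trypsin-like site, differed by 0.11 ± 0.16 in males and by 0.40 ± 0.16 in females, where the treated arrays (3.47 to 3.78) lay above the vehicle arrays (2.99 to 3.37). These intervals leave room for modest rises, and a missed threshold does not show that the sites stayed level. Psmb2, Psmb3 and Psmb4 lay between 0.004 and 0.30 in both sexes, none called.

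In the main fit the immunoproteasome subunits that replace these sites lay below 0, not all of them called. Psmb10 fell by 0.79 on the log2 scale in males (adjusted p = 0.031) and by 1.07 in females (adjusted p = 0.0065), from 4.26 to 4.43 down to 3.20 to 3.90 in males and from 5.31 to 5.87 down to 4.20 to 4.68 in females. Psmb9 fell in females by 0.84 (adjusted p = 0.048), and in males its difference of -0.71 ± 0.27 was not called. Psmb8 was not called in either sex (-0.75 ± 0.25 and -0.21 ± 0.25). Within slide 5 its difference was -0.625 in males but 0.50 in females, where Psmb9 was at -0.44 and Psmb10 at -1.67. Of the 9 measured genes of the immunoproteasome and antigen processing, 6 fell in males and 4 in females. Of all genes, 10.9% and 12.6% were called lower. None of the 9 was called higher, and in the main fit all 9 differences were below 0 in each sex.

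**Figure D2:**
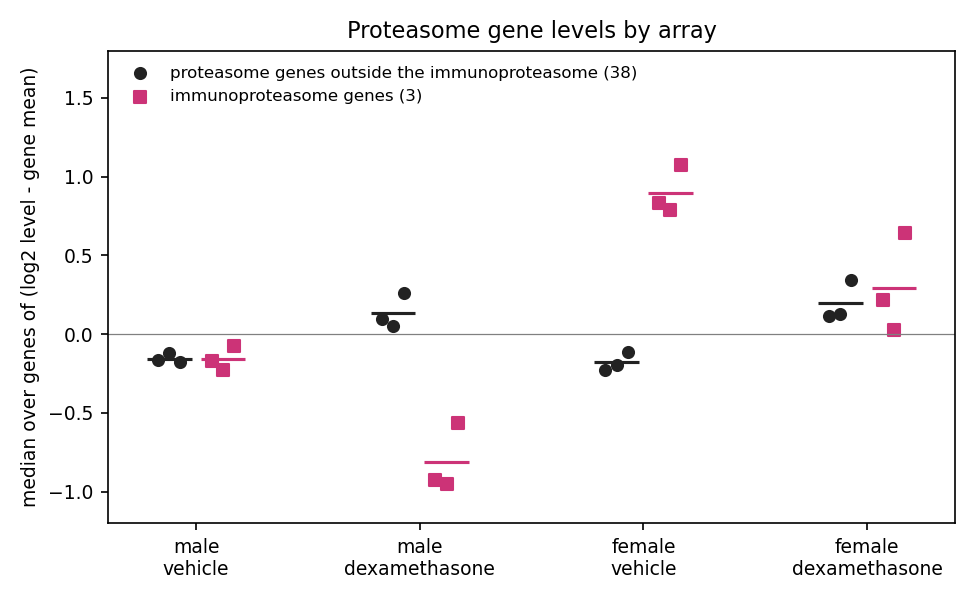
For each array, the median over genes of the log2 level minus that gene's mean over the 12 arrays. Black circles are the 38 genes taken by name, Psmc3ip among them, and pink squares Psmb8, Psmb9 and Psmb10. Horizontal lines are group means of 3 arrays. The black circles lie between -0.22 and -0.12 in the 6 vehicle arrays and between 0.05 and 0.35 in the 6 treated arrays, while the pink squares are lower after dexamethasone and higher in females.

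Array by array, the median deviation of the 38 genes from their means was -0.17, -0.12 and -0.18 in vehicle males and -0.22, -0.19 and -0.12 in vehicle females. After dexamethasone it was 0.09, 0.05 and 0.26 in males and 0.12, 0.13 and 0.35 in females. All 6 treated arrays lay above all 6 vehicle arrays, and the highest of each treated group was its array on slide 5. Within slide 5 alone the median difference was 0.41 in males and 0.44 in females, with 33 and 34 of 38 genes above 0. Within slide 1, which held 1 vehicle and 1 treated male pool, it was 0.23 with 31 above 0.

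The base of the regulatory particle holds the ring of ATPases that unfolds substrates. Of its 6 ATPases 1 rose in males (16.7%) and 2 in females (33.3%), against 9.24% and 11.8% of all genes. All 6 differences were above 0 in each sex, with medians of 0.39 and 0.43. Psmc5 was at 5.83, 5.76 and 5.69 in vehicle males and at 6.48, 6.43 and 6.81 in treated males, and at 5.69, 5.79 and 6.00 against 6.44, 6.55 and 6.74 in females. No treated array overlapped a vehicle array. The difference was 0.81 ± 0.16 in males (adjusted p = 0.0051) and 0.75 ± 0.16 in females (adjusted p = 0.0072).

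Psmc1 rose in females by 0.50 ± 0.14 (adjusted p = 0.024), from 5.04 to 5.33 up to 5.61 to 5.71, and was not called in males (0.32 ± 0.14). The female call held in 7 of the 12 fits that left out 1 array, with an adjusted p of up to 0.091 (without female vehicle replicate 1), and was lost under quantile normalization (0.070). The other 4 ATPases ranged from 0.02 for Psmc3 to 0.48 for Psmc4 in males and from 0.28 for Psmc3 to 0.51 for Psmc4 in females. By their brightest probe they were not called, although Psmc4 in females passed in 6 of the 12 other settings. With each probe fitted on its own, a second Psmc4 probe gave 0.40 in males and 0.69 in females (female limma adjusted p = 0.0089). A second Psmc6 probe gave -0.10 and 0.50 (female adjusted p = 0.039). None of the 3 other base genes was called: Psmd1 and Psmd2, the scaffolds that receive ubiquitin-like domains, and Psmd4, a ubiquitin receptor. Psmd4 differed by 0.31 ± 0.20 in males and 0.12 ± 0.20 in females.

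The lid removes ubiquitin chains before a substrate is threaded in. Of its 7 genes 3 were called higher in males and 5 in females, against 9.24% and 11.8% of all genes. Without slide 5 these counts were 0 and 4. Psmd12, a scaffold of the lid, was at 3.60, 3.63 and 3.59 in vehicle males and at 4.27, 4.01 and 4.32 in treated males. In females it was at 3.32, 3.35 and 3.51 against 4.35, 4.44 and 4.28. The groups were apart in both sexes, with differences of 0.59 ± 0.14 (adjusted p = 0.014) and 0.96 ± 0.14 (adjusted p = 0.00085). The male adjusted p reached 0.0502 without male dexamethasone replicate 3.

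Psmd8, another lid subunit, rose by 0.67 ± 0.17 in males (adjusted p = 0.018) and 0.85 ± 0.17 in females (adjusted p = 0.0051). Its vehicle arrays lay between 3.96 and 4.32 in males and 3.66 and 4.07 in females, and its treated arrays between 4.67 and 4.98 and between 4.65 and 4.85. Its male adjusted p was 0.067 without male vehicle replicate 3 and 0.074 under quantile normalization. Psmd7, which pairs with the deubiquitinase of the lid, rose by 0.58 ± 0.18 (adjusted p = 0.044) and 0.59 ± 0.18 (adjusted p = 0.038). Its calls were near the threshold, and without male dexamethasone replicate 3 the male adjusted p was 0.15. Its 3 probes, each fitted on its own, gave 0.58, 0.69 and 0.45 in males and 0.59, 0.37 and 0.88 in females.

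Psmd6 and Psmd13, both structural lid subunits, were called in females only, and the difference between the sexes was not called for either. Psmd6 went from 0.18, 0.36 and 0.69 to 1.68, 1.41 and 1.21 in females, a difference of 1.02 ± 0.20 (adjusted p = 0.0046). With slide as a fixed block, where the female difference rests on 1 treated pool, it was 0.52. With slide as a random block the adjusted p was 0.014. In males it was at 0.74, 0.33 and 0.61 against 0.82, 0.61 and 1.01, overlapping, with 0.26 ± 0.20. Psmd13 rose in females by 0.99 ± 0.29 (adjusted p = 0.032), a call that held in 7 of the 12 fits that left out 1 array, with an adjusted p of up to 0.10 (without female dexamethasone replicate 2), and was lost without slide 5 (0.089). Its male arrays overlapped widely, from 0.74 to 1.36 after vehicle and from 0.63 to 1.59 after dexamethasone. Psmd11 differed by 0.02 ± 0.14 in males and 0.39 ± 0.14 in females (adjusted p = 0.068), and Psmd3 by 0.14 ± 0.27 and 0.67 ± 0.27 (adjusted p = 0.10); neither was called.

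**Figure D3:**
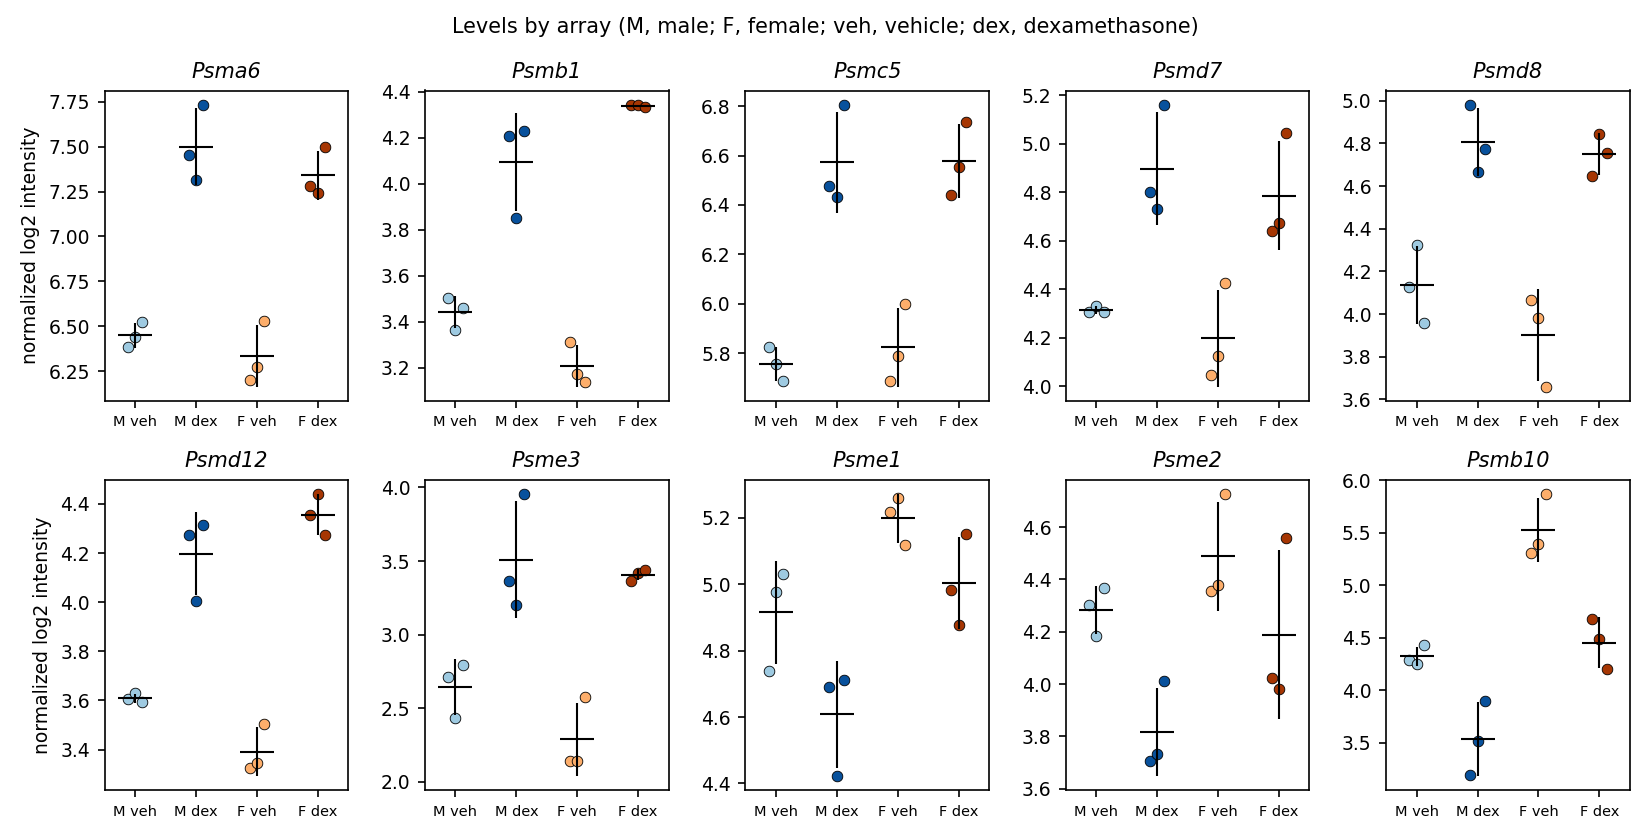
Normalized log2 intensity of each array (points) with the group mean and SD (3 arrays) for the 7 genes called in both sexes, for the activators Psme1 and Psme2, and for Psmb10 of the immunoproteasome. In the 7 called genes every treated array lies above every vehicle array of its sex; Psme1, Psme2 and Psmb10 are lower in treated males. Each panel has its own vertical scale, which does not start at 0.

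The chaperones Psmd5, Psmd9 and Psmd10, which hold base subunits during assembly, gave no call. Psmd5 differed by 0.52 ± 0.21 in males and 0.49 ± 0.21 in females, with treated arrays above vehicle arrays in both. Psmd9 differed by 0.64 ± 0.28 and 0.37 ± 0.28, and Psmd10 by -0.06 ± 0.13 and 0.08 ± 0.13.

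The 4 activators divided. Psme3, the nuclear activator that opens the core without ubiquitin, was at 2.71, 2.43 and 2.80 in vehicle males and at 3.37, 3.20 and 3.96 in treated males. In females it was at 2.15, 2.15 and 2.58 against 3.37, 3.42 and 3.44. Its groups did not overlap, and it rose by 0.86 ± 0.22 in males (adjusted p = 0.017) and 1.12 ± 0.22 in females (2.17-fold, adjusted p = 0.0042). Psme4, the large nuclear activator, differed by 0.35 ± 0.17 and 0.46 ± 0.17, not called.

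Psme1 and Psme2, the interferon-inducible activator pair, lay below 0. Psme2 was at 4.30, 4.18 and 4.37 in vehicle males and at 3.71, 3.73 and 4.01 in treated males, without overlap. In females it was at 4.36, 4.38 and 4.73 against 4.03, 3.98 and 4.56, overlapping. The differences of -0.47 ± 0.19 and -0.30 ± 0.19 were not called, although the male one passed in 6 of the 12 other settings, among them quantile normalization (-0.60, adjusted p = 0.020). Psme1 differed by -0.31 ± 0.15 and -0.19 ± 0.15 and was called only in males under quantile normalization (adjusted p = 0.045). Psmc3ip differed by -0.26 ± 0.19 and -0.48 ± 0.19, not called.

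Treated groups lay wholly above vehicle groups for 20 of the 38 genes in males and 22 in females, where 16.5% and 20.2% of all genes did so. They lay wholly below for 3 genes in males and 1 in females, where 18.6% and 22.9% of all genes did so. Of the 7 genes with more than 1 probe, the probes had the same sign for 5 in males and 7 in females; the exceptions, Psmc6 and Psmd1 in males, had probes on either side of 0 between -0.10 and 0.12. RefSeq lists pseudogenes named after 17 of the 38 genes, among them Psma6, Psmd8, Psmd12 and Psme3, and whether their transcripts add to a probe's signal was not tested.

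The probe letters below are those read by the arrays for Psmb1, Psmd12 and Psmd8, 3 of the 7 genes called in both sexes, and the second probe of Psma6. They are shown because each value above is the brightness of such a 60-base oligonucleotide, and they are printed as in the scanner files, all in lower case.
Psma6, second probe: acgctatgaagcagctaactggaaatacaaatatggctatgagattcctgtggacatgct
Psmb1: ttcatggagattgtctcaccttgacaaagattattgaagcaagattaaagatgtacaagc
Psmd12: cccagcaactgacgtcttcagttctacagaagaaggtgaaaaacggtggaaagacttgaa
Psmd8: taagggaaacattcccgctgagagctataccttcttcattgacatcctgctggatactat

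No gene of the 38 was called for a difference between the sexes. For the difference between the female and the male dexamethasone effect, 0.0288% of all genes were called; 4 of the 38 (10.5%) had an unadjusted p under 0.05, close to the 9.94% of all genes that did. The 4, all with a positive difference, were Psmd13 (0.95, 95% interval 0.03 to 1.86), Psmd6 (0.77, 0.14 to 1.39), Psma1 (0.54, 0.07 to 1.01) and Psmb1 (0.48, 0.02 to 0.94), with adjusted p-values between 0.44 and 0.49. The median of this difference was 0.12 over the 38 genes and -0.05 over all genes. For 33 of the 38 the interval lay within a 2-fold difference either way, so smaller sex differences cannot be told from none with these arrays. In the lid all 7 differences were above 0, with a median of 0.38 and none called. Above 0 were also 26 of the 38 genes, 8 of the 14 core particle genes and 45.9% of all genes.

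After vehicle, 1.7% of all genes were called between females and males, none of them among the 38, where 1 gene had an unadjusted p under 0.05. That gene was Psmd11, at 2.772 to 2.949 in females and 3.104 to 3.376 in males (-0.37 ± 0.14, adjusted p = 0.36). All 7 lid genes were lower in vehicle females, with a median of -0.23, none called. The same vehicle arrays enter the difference of effects given above, so the lid patterns are not separate observations. After dexamethasone 2.28% of all genes were called, none of the 38, and 2 had an unadjusted p under 0.05. These were Psmd6 (0.61 ± 0.20, adjusted p = 0.17) and Psme1 (0.40 ± 0.15, adjusted p = 0.24), both higher in females. The sexes were fully apart for 8 of the 38 genes after vehicle and 7 after dexamethasone, where 15.6% and 23.2% of all genes were apart. The immunoproteasome differed here: Psmb10 was higher in females after vehicle by 1.20 ± 0.22 (adjusted p = 0.023), and Psmb8 after dexamethasone by 1.63 ± 0.25 (adjusted p = 0.0065).

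Genes that act with the proteasome were taken from lists of the pathway, whose counts stand against 9.24% of all genes called higher and 10.9% lower in males and 11.8% and 12.6% in females. Of 3 measured genes of the regulatory particle with other names, Adrm1, a ubiquitin receptor, rose by 0.65 ± 0.17 in males and 0.61 ± 0.17 in females. The deubiquitinase Uchl5 rose by 0.41 ± 0.13 and 0.49 ± 0.13. Usp14, the other deubiquitinase, rose in males (0.52 ± 0.14) and was not called in females (0.37 ± 0.14). Of the 5 measured ubiquitin and ubiquitin-activating genes none was called in either sex, with 1 at an unadjusted p under 0.05 in each.

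Of 15 shuttles, unfolding factors and transcription factors of proteasome genes, 1 rose and 1 fell in males, and 5 rose and 1 fell in females. Nploc4, an adaptor of the segregase that extracts ubiquitinated proteins, rose in females by 1.14 ± 0.23, with 2 of its 3 vehicle arrays well above background. Ubqln2, a shuttle that carries ubiquitinated proteins to the proteasome, fell in females by 0.75. Nfe2l1, the factor that induces proteasome genes when proteasomes are impaired, was not called (-0.20 ± 0.21 and -0.56 ± 0.21). Nfe2l2, a factor of the oxidative stress response that also acts on proteasome genes, fell in males by 1.97 (adjusted p = 0.00029), and its female difference of -0.72 ± 0.24 was not called.

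Among 19 ubiquitin-conjugating enzymes 4 rose and 3 fell in males, and 7 rose and 1 fell in females. Ube2g2, which serves degradation of proteins from the endoplasmic reticulum, rose by 1.90 ± 0.33 in males and 2.35 ± 0.33 in females. Ube2n, which builds non-degradative chains, rose by 0.89 ± 0.17 and 0.80 ± 0.17. Ube2d1, a broadly used conjugating enzyme, fell by 1.31 and 0.71. Of 12 ubiquitin ligases 3 rose in males and 4 in females; Cblb rose by 2.02 ± 0.19 and 1.20 ± 0.19 and Nedd4l by 1.06 ± 0.17 and 1.49 ± 0.17. Btrc was called higher in females, but only 1 of its 3 vehicle arrays was well above background, so no size is given. Over all these lists together, 11 of 54 genes rose (20.4%) and 4 fell in males, and 18 rose (33.3%) and 2 fell in females.

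**Figure D4:**
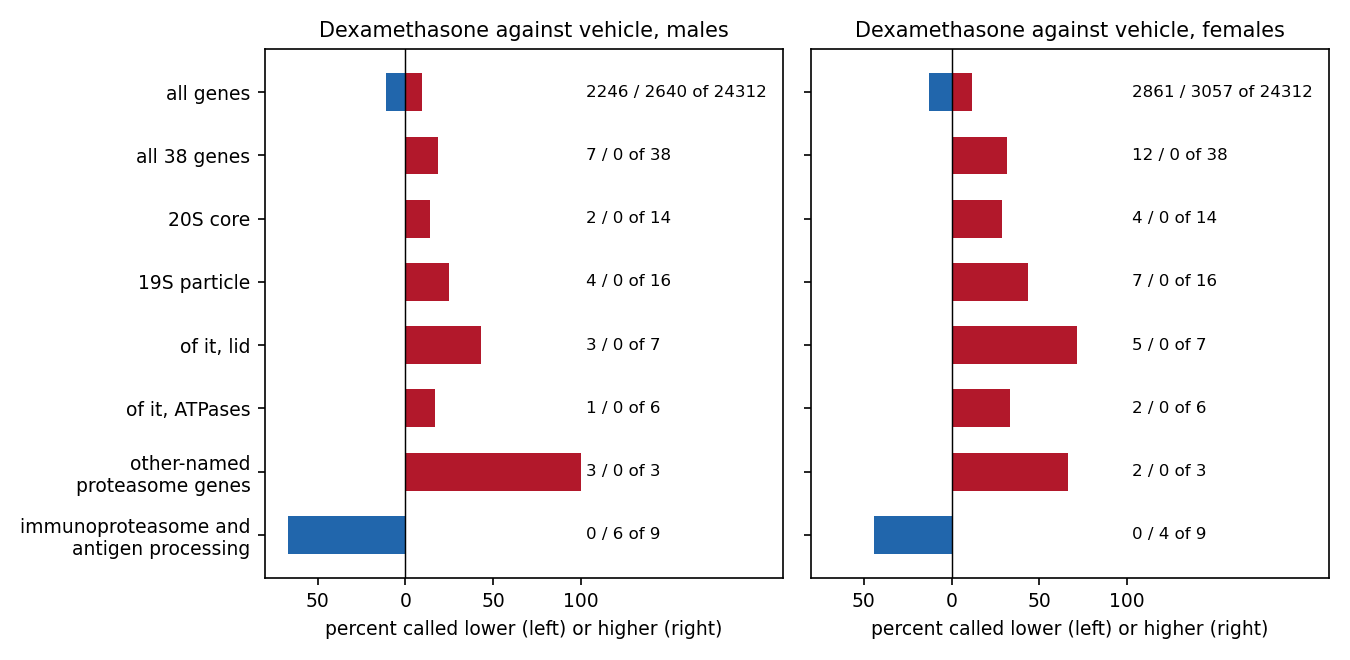
Percent of measured genes called higher (red, right) or lower (blue, left) after dexamethasone in males and in females. Bars are given for all genes, the 38 genes taken by name, parts of the complex, and genes of the regulatory particle with other names. The last bar is the immunoproteasome with antigen processing. Numbers give genes higher / lower of those measured; the lid has 3 and 5 of 7 higher, and the immunoproteasome list 6 and 4 of 9 lower.

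Markers of some other liver cell types moved with treatment. Their counts stand against 10.9% of all genes called lower in males and 12.6% in females. Of 6 measured T and NK cell markers 4 fell in males and 5 in females, and their summed level (log2) went from 1.84 to 2.33 down to 0.95 to 1.18 in males and from 1.97 to 2.57 down to 0.68 to 0.89 in females. Both measured neutrophil markers, S100a8 and S100a9, fell in each sex, and the sum went from -1.22 to -0.48 down to -3.77 to -3.01 in males and from -1.12 to 1.28 down to -3.56 to -2.95 in females. Of 6 Kupffer cell and macrophage markers 2 fell in each sex, with sums of 5.64 to 6.22 against 4.99 to 5.92 and of 5.79 to 6.49 against 4.80 to 5.93. Cd79b, the measured B cell marker of 4 listed, fell in both. Of 3 endothelial markers none was called in males and 1 fell in females, with sums of 5.01 to 5.47 against 3.97 to 4.43 and of 5.32 to 6.01 against 2.62 to 4.02. Of 5 stellate cell and fibroblast markers 1, Lrat, fell in males and 2, Des and Lrat, in females. In males 4 of the 5 lay above 0 (median 0.09), and in females none did (median -0.62). Their sums were 5.41 to 5.84 against 5.28 to 5.66 in males and 5.50 to 5.88 against 4.48 to 5.46 in females.

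Defining markers that did not enter the fit included Cd3e, Cd79a, Ms4a1, Mpo, Camp, Marco, Pecam1, Lyve1, and the bile duct markers Krt7, Krt19 and Epcam. The 1 measured bile duct marker of 4 listed, Sox9, was not called (-0.37 in males and -0.10 in females). Of 6 hepatocyte markers none was called in males and 1, Cps1, rose in females, and the summed level was 11.2 to 12.2 against 11.8 to 12.3 in males and 11.7 to 12.1 against 12.2 to 12.3 in females. The part of these shifts in the proteasome and immunoproteasome results was not tested.

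Upstream sequence was matched to 35 of the 38 genes in the RefSeq table (build GRCr8); Psma7, Psmd12 and Psmd6 had none there. Windows of 250 bases before to 50 after the annotated start were searched on both strands, and overlapping matches were kept. The core of the antioxidant response element, TGACNNNGC, was in 8 of 35 windows (22.9%) against 12.5% of 21851 protein-coding genes; it was in none of the 6 matched genes called in males and in 1 of 10 called in females. CCAAT was in 18 (51.4%) against 38.0%, and in 3 of the 6 genes called in males and 7 of the 10 called in females. The glucocorticoid response element, searched as ACANNNTGT, was in 1 (2.9%), Psma6, against 5.68% of all. The interferon-stimulated element, searched as GAAANNGAA, was in 6 (17.1%) against 8.95%, and in 2 of the 3 immunoproteasome genes. TTCNNNGAA, the form bound by STAT factors, was in 3 (8.6%) against 8.32%. ACANNNTGT, GAAANNGAA and TTCNNNGAA were each in 1 of the 6 and 1 of the 10 called genes. A match of letters is a description and shows no binding.

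The windows below end at the base before the annotated start and are printed to show these letters in genes that were called and in genes that were not. Capitals mark ACANNNTGT in Psma6, which rose in both sexes, TGACNNNGC in Psmb5, which was not called, and GAAANNGAA in Psme2 and in Psmb10. The windows are chr6:78514097-78514346 on the plus strand for Psma6, and, on the minus strand, chr15:32047380-32047499 for Psmb5, chr15:33052752-33052871 for Psme2 and chr19:50743293-50743412 for Psmb10.
Psma6: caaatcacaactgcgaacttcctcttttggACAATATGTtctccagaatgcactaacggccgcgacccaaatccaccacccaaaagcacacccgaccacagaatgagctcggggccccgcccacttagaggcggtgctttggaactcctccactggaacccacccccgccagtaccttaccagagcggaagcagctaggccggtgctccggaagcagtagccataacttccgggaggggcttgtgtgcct
Psmb5: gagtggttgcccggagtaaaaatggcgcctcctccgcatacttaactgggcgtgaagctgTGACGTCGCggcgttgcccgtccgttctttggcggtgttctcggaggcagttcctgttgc
Psme2: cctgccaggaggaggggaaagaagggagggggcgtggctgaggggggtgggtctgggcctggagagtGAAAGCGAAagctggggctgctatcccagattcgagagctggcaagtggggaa
Psmb10: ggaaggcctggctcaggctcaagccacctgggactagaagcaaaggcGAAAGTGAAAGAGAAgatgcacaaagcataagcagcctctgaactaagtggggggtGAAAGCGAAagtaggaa

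The match in Psma6 began 220 bases before its start. Psmb10 had 3 matches of GAAANNGAA, beginning 73, 67 and 17 bases before its start, of which the former 2 overlap. Psme2 lay below 0 in both sexes and Psmb10 fell in both. The same letters were in Psmd7, called higher in both sexes, and in Psma4, Psmb2, Psmb3 and Psmd11, which were not called.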

How the data were processed

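Total liver RNA of 12 pools, labelled with Cy3, was hybridized to Agilent whole-genome rat arrays, and spot intensity was deposited by the authors as scanner output of Agilent Feature Extraction 9.1.3.1, per the file headers (9.1 per the submitters' processing notes). The background-subtracted processed signal was taken as log2 and scaled to the 75th percentile of each array over non-control spots. The 211 spots with outlier flags were set missing, none of them of the 38 genes, and no spot was saturated. A probe was kept when at least 3 of the 12 arrays read it well above background, and the brightest kept probe stood for a name. Group means were fitted with limma 3.58.1 in R 4.3.3, with p-values adjusted by Benjamini-Hochberg over 24312 genes in each of 5 contrasts. The authors also deposited a value table of log10 values. It correlated with the scanner values at 0.996 to 1.00 per array; its column medians were 1.49 to 1.52, and how it was scaled is not given in the sources used here. It served as an alternative. Motifs were searched in the RefSeq promoter table.

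The members and lists were chosen with earlier results of these data known. Genes were named by rule: in each contrast the 8 called members with the largest difference, a fixed set (Psmb5, Psmb6, Psmb7, Psme1 to Psme4, Psmd4, Psmd11), comparators, and up to 6 called genes of a pathway list; some genes of the lists are counted but not reported by name here. The remaining values that are given describe members outside it. On simulated data for the male contrast (24312 genes), limma recovered 2.99% of changes of 0.5, 20.9% of changes of 1 and 69.7% of changes of 2 on the log2 scale, none in the wrong direction. Only 67, 67 and 66 genes were given these changes. The real male contrast called 2246 genes higher and 2640 lower. The Benjamini-Hochberg adjustment is stricter when few genes change, so these shares do not give the power for the proteasome genes.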

Additional observations from a re-analysis of the deposited data

How the results depend on the processing

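The results were recomputed under 12 other settings and with each of the 12 arrays left out. The median difference of the 38 genes kept its direction in both sexes under all of them. In females it was 0.49 with arrays centred on the median gene (added after seeing the data), 0.23 under quantile normalization and 0.21 in the authors' value table, and 0.27 to 0.38 with single arrays left out. In males it was 0.15 under quantile normalization, 0.12 in the authors' table, 0.41 within slide 5 and 0.17 without that slide, and 0.22 to 0.33 with single arrays left out. Between vehicle females and males it was 0.080 within slide 5. Calls higher in females numbered 7 with slide as a fixed block, 6 of them shared with the 12, and 8 to 12 with single arrays left out. They numbered 15 with slide as a random block. The female calls with the fixed block rest on 1 treated pool, that on slide 5. In males they numbered 9 and 13 with slide as a fixed or random block, 3 without slide 5 and 4 to 7 with single arrays left out. A gene was called lower in females in the authors' table (1, Psme2), without slide 5 (1, Psmc3ip) and in 0 to 1 with single arrays left out (Psmc3ip, without female dexamethasone replicate 3). In males 1 was called lower, Psme2, with normexp background, with the replicate block, with slide as a random block, in the authors' table and without slide 5, and 2 under quantile normalization (Psme1 and Psme2). The causes were not tested. No setting called a member between the sexes or for the difference of effects.

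Of the 38 genes, 10 in males and 6 in females turned sign in at least 1 setting or with 1 array left out, none of them called in that sex. Among the genes named by rule, signs turned for 4, none called in the sex given. Psmd11 in males was -0.088 with normexp, -0.033 under quantile normalization, -0.025 in the authors' table, -0.057 without slide 5 and -0.059 to 0.077 with single arrays left out. Psmd13 in males was -0.021 with slide as a fixed block and -0.23 to 0.25 with single arrays left out. Psmd4 in females was -0.0031 under quantile normalization, -0.026 in the authors' table and -0.021 to 0.29 with single arrays left out. Psmb8 in females was 0.45 and 0.056 with slide as a fixed or random block. Centring on the median gene moved the female median of all genes from -0.07 to 0.06, and dropping the filter moved it to -0.20.

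Same-numbered arrays did not deviate together in each pair (correlations of deviations 0.01, -0.003 and 0.52 in males and 0.07, 0.11 and 0.18 in females), so the numbers were not taken as pairs. With the replicate block 8 members rose in males and 13 in females. The replicate 3 arrays shared a slide, and between the sexes they correlated at 0.50 after vehicle and 0.22 after dexamethasone. The consensus correlation within slides was 0.513. The main fit took arrays as independent, so its p-values do not allow for this. The counts with slide as a block are given above. Dim probes limit no member, since all 38 were above background on every array; 3 pools per group limit the rest.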
